A study of Homo sapiens with 6 samples.

Results

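The miR-29 family was followed from whole Müller glial cells into the extracellular vesicles (EV) that these cells release. Its 7 mature members were taken by name from tables of 2576 mature miRNAs. They comprise the 3 arms hsa-miR-29a-3p, hsa-miR-29b-3p and hsa-miR-29c-3p, and the 4 opposite arms hsa-miR-29a-5p, hsa-miR-29b-1-5p, hsa-miR-29b-2-5p and hsa-miR-29c-5p, written below without the prefix for human. The rule is a list of names and applies no threshold to the counts.

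Small RNA was sequenced from MIO-M1, an established human Müller glial line of WT genotype, as 3 libraries of whole cell RNA (passages 22, 24 and 26) and 3 libraries of secreted EV (passages 23, 25 and 27). In both groups cells were grown in DMEM with 10% FCS, and per the labels 80% confluent cultures were washed 5 times and kept for 24 h without serum before EV were collected by centrifugation. The methods of the study give other numbers for the washes and the time, and state that intact EV were exposed to RNase A before extraction. RNA was extracted with the RNeasy kit from cells and with the Total Exosome RNA Isolation kit from EV, so the kit and the source of RNA cannot be told apart, and all libraries came from 1 line, so that p-values measure the spread between its passages. Replicates 1, 2 and 3 follow the order of passage within a group, and equal numbers carry no pairing.

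The miR-29 family is best known as a brake on extracellular matrix. Its 3p arms bind the messages of collagens, elastin and other matrix proteins, and those of the DNA methyltransferases DNMT3A and DNMT3B and of the survival factor MCL1. A mature miRNA finds its targets mainly through bases 2 to 8, the seed, and each hairpin precursor can give an arm from either side, of which 1 is usually kept by Argonaute and the other degraded. Müller glia span the retina and contribute to its matrix and to gliotic scars, where members of this family have been studied as repressors of matrix genes.

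The mature sequences show why the family is treated as a unit and where its members part. The 3 main arms share the seed AGCACCA, given here in capitals at bases 2 to 8 counted from the 5′ end (sequences from RefSeq, GRCh38.p14).
miR-29a-3p: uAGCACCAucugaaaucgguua
miR-29b-3p: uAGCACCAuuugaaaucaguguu
miR-29c-3p: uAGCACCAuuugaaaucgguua
Of the 2576 names in the tables, 2262 were matched to a mature sequence, and these 3 arms were the only ones among them with that seed. From miR-29a-3p to miR-29c-3p there was 1 substitution, C10U. From miR-29c-3p to miR-29b-3p there were 3, G18A, U21G and A22U, and miR-29b-3p was 1 base longer, at 23 against 22. Compared base by base from the 5′ end, the nearest matched sequence outside the family was miR-136-3p, with 8 or more mismatches to each 3p arm. Short sequences were left out, and likeness with a shift or a gap was not searched. The number of mismatches allowed in the alignment is not given in the sources used here, so how many reads of one 3p arm were counted for another was not tested.

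The 4 opposite arms carry 4 different seeds, again in capitals, and each seed belonged to that arm alone among the 2262 sequences.
miR-29a-5p: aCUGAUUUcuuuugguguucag
miR-29b-1-5p: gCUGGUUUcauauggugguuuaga
miR-29b-2-5p: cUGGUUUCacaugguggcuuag
miR-29c-5p: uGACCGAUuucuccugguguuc
The 5p arms are shown because each comes from a single precursor. miR-29b-3p is made from both the miR-29b-1 and the miR-29b-2 hairpin, and its row in the tables covers both loci, whereas the 5p names are listed apart. The seeds of miR-29b-1-5p and miR-29b-2-5p overlap along the same stretch, and the arms are alike beyond it. How many reads of one were counted for the other was not tested.

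The members lie in 2 clusters, all on the minus strand. The tables name no genome build, and by their coordinates miR-29a-3p lies at chr7:130561507-130561528, miR-29a-5p at chr7:130561545-130561566 and miR-29b-1-5p at chr7:130562266-130562289. On chromosome 1 they place miR-29c-3p at chr1:207975210-207975231, miR-29c-5p at chr1:207975248-207975269 and miR-29b-2-5p at chr1:207975837-207975858. miR-29b-3p is listed at chr7:130562226-130562248 and at chr1:207975795-207975817. In the GENCODE 29 annotation of GRCh38, another coordinate system, the MIR29B2 and MIR29C precursors lie in exons of the long non-coding RNA MIR29B2CHG, 503 bases apart. MIR29B1 lies in an exon of LINC-PINT, and MIR29A, 648 bases from it, partly overlaps an exon of the same non-coding gene.

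Values are counts of reads per mature miRNA or CPM, counts scaled to a library total of 1000000. The total count was 396025 to 3990900 in whole cells and 1225541 to 3134561 in EV. Up to 3 counts are allowed for in a library that has 0, which is 0.752 to 7.58 CPM in whole cells and 0.957 to 2.45 CPM in EV. Floors and intervals cover counting error only, as no source used here names a step that counts the kit's molecular tags. All 10 of the listed Müller glial markers passed the filter. They summed to 367106 to 409845 CPM in whole cells and 309329 to 363352 CPM in EV. The paper names most of them among the abundant miRNAs of these EV, so passing the filter was no test of cell identity. Single markers went both ways between the groups, as given below. A difference in CPM compares shares of a library, so more copies of a miRNA and fewer copies of the others cannot be told apart.

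All 3 arms that share the seed took a larger share of the EV libraries than of the whole cell libraries, and the ratio between the group means was larger for the rarer arms. The mean share was 2.69 times as high in EV for miR-29a-3p, 8.14 times for miR-29b-3p and 16.9 times for miR-29c-3p. The last 2 ratios depended on whole cell library 1, the shallowest, without which they were 18.0 and 26.7, while leaving out any other library gave 6.29 to 9.50 and 14.1 to 20.4. Together the 3p arms made up 0.5005%, 0.432% and 0.433% of whole cell libraries 1, 2 and 3, and 1.88%, 1.36% and 0.724% of EV libraries 1, 2 and 3. The groups of this sum did not overlap, and the EV libraries were spread more widely than the cell libraries.

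**Figure D1:**
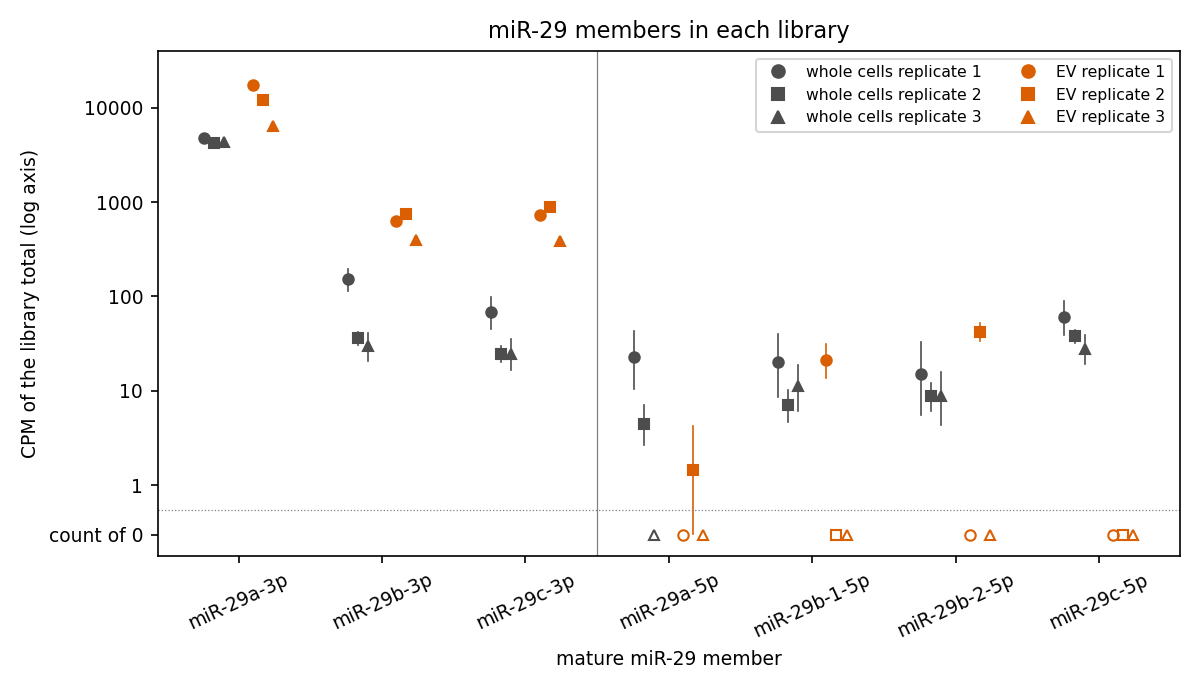
Level of each miR-29 member in CPM of the library total (log axis) in the 3 whole cell libraries (grey) and the 3 EV libraries (orange), with exact 95% counting intervals as lines and open symbols for a count of 0. The 3p arms lie higher in every EV library than in any whole cell library, while miR-29c-5p is at 0 in all 3 EV libraries.

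miR-29a-3p, the most abundant member, was counted 1895, 17002 and 5355 times in whole cell libraries 1, 2 and 3, which is 4785, 4260 and 4277 CPM. In EV libraries 1, 2 and 3 it was counted 21406, 24416 and 20245 times, which is 17467, 11977 and 6459 CPM. The cell libraries were close to each other and lay below every EV library, and EV library 3 was the nearest to them. By count it ranked 39, 42 and 41 among all miRNAs of whole cell libraries 1, 2 and 3, and 12, 16 and 28 in the EV libraries. The means were 4441 ± 298 CPM in whole cells and 11967 ± 5504 CPM in EV (SD, n = 3).

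miR-29b-3p was counted 60, 144 and 37 times in the whole cell libraries, or 151.5, 36.1 and 29.5 CPM. In the EV libraries it was counted 766, 1528 and 1235 times, or 625, 750 and 394 CPM. Whole cell library 1, the shallowest of the 6, stood above the other cell libraries but below every EV library. The means were 72.4 ± 68.6 CPM in whole cells and 590 ± 180 CPM in EV (SD, n = 3).

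miR-29c-3p was counted 27, 99 and 31 times in the whole cell libraries, or 68.2, 24.8 and 24.8 CPM. In the EV libraries it was counted 888, 1790 and 1205 times, or 725, 878 and 384 CPM. The lowest EV library lay 5.64 times above the highest cell library, a wider gap than for miR-29b-3p (2.60 times) or miR-29a-3p (1.35 times). The means were 39.2 ± 25.1 CPM in whole cells and 662 ± 253 CPM in EV (SD, n = 3). Its rank by count was 199, 268 and 269 in whole cell libraries 1, 2 and 3, and 82, 78 and 98 in EV libraries 1, 2 and 3.

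Differences were tested with edgeR's quasi-likelihood test over the 430 miRNAs that reached 5 CPM in 3 or more of the 6 libraries. A call needed a Benjamini-Hochberg adjusted p below 0.01 and a log2 fold change (EV over whole cells) of at least 2.5 in size. Of the 7 members 6 passed the filter, miR-29a-5p did not, and 1 was called. Over all miRNAs tested 25, or 5.81%, were called, of which 19 (4.42%) were higher in EV and 6 (1.40%) lower.

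miR-29c-3p was the called member, with a log2 fold change of 4.16 ± 0.58 (SE, 95% interval 2.79 to 5.52, edgeR adjusted p = 0.00448). It stood at rank 29 of the 430 tested by log2 fold change. The direction held without any 1 library, but the edgeR call did not. The adjusted p was 0.0224 without whole cell replicate 2 and 0.0288 without whole cell replicate 3, and it was 0.0130 without EV replicate 1 and 0.0160 without EV replicate 2. In that order, these fits called 7, 0, 11 and 0 of all 430 miRNAs.

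miR-29b-3p had a log2 fold change of 3.16 ± 0.68 (SE, 95% interval 1.57 to 4.75), and its edgeR adjusted p of 0.0121 missed the limit. Without whole cell replicate 1 the value was 3.90, with an edgeR adjusted p of 0.00961, which passed. DESeq2, which called 16.7% of all miRNAs by the same limits, called it at a log2 fold change of 2.85 and an adjusted p of 0.00049. miR-29a-3p had a log2 fold change of 1.45 ± 0.42 (SE, 95% interval 0.47 to 2.43, edgeR adjusted p = 0.0386), short of both limits. Without EV replicate 1 its log2 fold change was 0.86, with an edgeR adjusted p of 0.0927, and leaving out other libraries gave 1.25 to 1.62.

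With the adjusted p limit at 0.05 and the same limit on size, edgeR called 3 members beside 21.6% of all miRNAs, miR-29b-3p, miR-29c-3p and miR-29c-5p. Without a limit on size it passed 4 members, the 3p arms and miR-29c-5p, beside 123 of 430 miRNAs (28.6%). The EV libraries did not overlap the whole cell libraries, on TMM-scaled CPM, for 4 of the 6 members past the filter, 3 above and 1 below, where this held for 48.4% of all miRNAs tested (20.9% above and 27.4% below). For miR-29c-5p, at 0 in EV, the filter fixed this, since that arm could pass only through the whole cell libraries. For the share of each 3p arm a two-sided exact permutation test gave p = 0.1, the smallest that 3 against 3 libraries allow, and 0.175 after Benjamini-Hochberg adjustment over the 7 members.

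The base composition of the arms is a value to set beside these changes. The GC content was 40.9% for miR-29a-3p, 34.8% for miR-29b-3p and 36.4% for miR-29c-3p, where the median of the 390 filtered miRNAs with a sequence was 50%. Across these miRNAs the log2 fold change and GC content had a Pearson r of -0.345, given as a description over miRNAs that share the same 6 libraries. With a GC trend removed from each library, miR-29c-3p stayed called at a log2 fold change of 2.97 (edgeR adjusted p = 0.00517). This fit called 19 of 390 miRNAs. In the same fit miR-29b-3p was at 1.87 (edgeR adjusted p = 0.0237) and miR-29a-3p at 0.80 (edgeR adjusted p = 0.203).

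**Figure D2:**
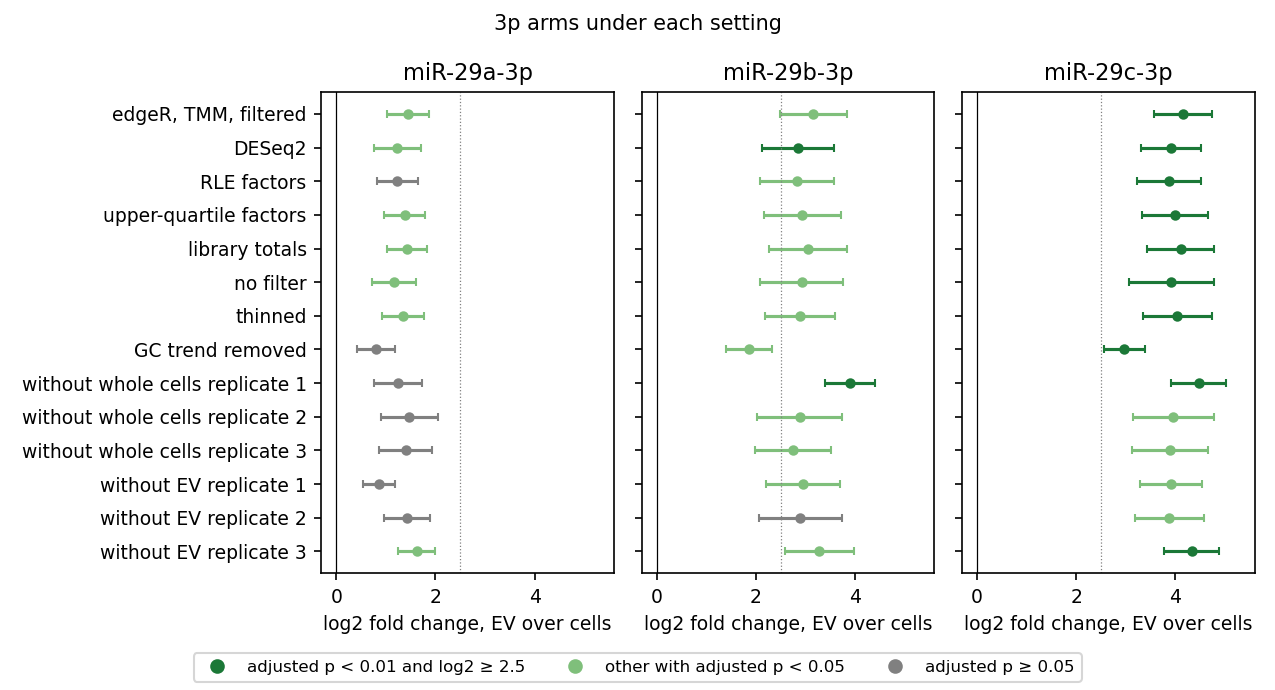
Log2 fold change, EV over whole cells, of the 3p arms under each setting, with bars for the SE and a dotted line at 2.5. Dark green marks an adjusted p below 0.01 with a log2 value of at least 2.5, light green another adjusted p below 0.05 and grey the rest. Every value is above 0, and miR-29a-3p stays under the dotted line throughout.

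The median log2 fold change over all miRNAs tested was -0.23 with TMM factors and -0.41 with RLE factors. Relative to that median, miR-29a-3p was at 1.68 with TMM and 1.65 with RLE. miR-29b-3p was at 3.39 and 3.25, and miR-29c-3p at 4.39 and 4.29.

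Ratios between members inside a library do not depend on how libraries are scaled, and they also differed between cells and EV. For every 100 counts of miR-29a-3p there were 1.42, 0.582 and 0.579 counts of miR-29c-3p in whole cell libraries 1, 2 and 3. In EV libraries 1, 2 and 3 there were 4.15, 7.33 and 5.95. The lowest EV ratio was 2.91 times the highest cell ratio, and the mean log2 ratio was 2.83 higher in EV (2.61 to 3.27 with 1 library left out). These are the arms that differ by the single substitution C10U.

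The miR-29b-3p count per 100 counts of miR-29a-3p was 3.17, 0.847 and 0.691 in whole cells and 3.58, 6.26 and 6.10 in EV. The groups did not overlap, but whole cell library 1 and EV library 1 were near each other, and the mean log2 ratio was 2.06 higher in EV. It was 2.74 higher without whole cell replicate 1 and 1.65 to 2.32 higher without any other library. Between the rarer arms the shift was smaller, with 45, 68.8 and 83.8 counts of miR-29c-3p per 100 of miR-29b-3p in whole cells and 116, 117 and 97.6 in EV. This mean log2 ratio was 0.78 higher in EV (0.53 to 0.97 with 1 library left out). So miR-29b-3p was the more abundant of these arms in every whole cell library, while miR-29c-3p was above it in EV libraries 1 and 2 and just below it in EV library 3.

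Each of the 3 ratios gave p = 0.1 in a two-sided exact permutation test, the smallest possible, and 0.12 after Benjamini-Hochberg adjustment over 6 ratios. Within the 3p sum, miR-29a-3p made up 95.6%, 98.6% and 98.7% in whole cells and 92.8%, 88.0% and 89.2% in EV. The other 3p arms together took 2.35% ± 1.77 of the sum in whole cells and 9.96% ± 2.49 in EV (SD, n = 3). The family pool was mostly miR-29a-3p in each library, and the minority was larger in every EV library.

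**Figure D3:**
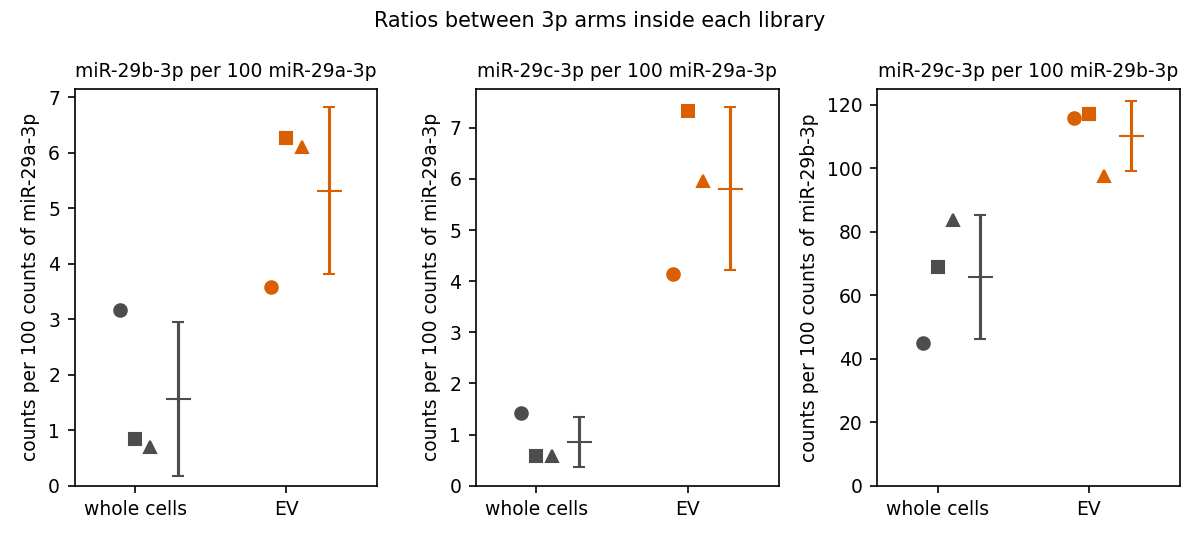
Counts of one 3p arm per 100 counts of another inside each library, for the 3 pairs of arms (linear axes from 0), with whole cells in grey and EV in orange; circles, squares and triangles are replicates 1, 2 and 3, and bars are the mean and SD. All EV points lie above all whole cell points in each panel, and the smallest gap is in the miR-29b-3p to miR-29a-3p panel, between 3.17 and 3.58.

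The opposite arms were rare, and miR-29c-5p was absent from the EV counts where its 3p partner was high. miR-29c-5p was counted 24, 152 and 35 times in whole cells, or 60.6, 38.1 and 28.0 CPM, and 0 times in each EV library. With 3 counts allowed in each EV library, its mean share was at least 25.97-fold lower in EV. The edgeR adjusted p was 0.0120, short of the limit, and DESeq2 gave an adjusted p of 9.88e-06 and called it. It was counted in all whole cell libraries and in no EV library, as were 35 of the 430 miRNAs tested (8.14%). The exact permutation p of its share was 0.1, and 0.175 adjusted over the 7 members.

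The arms of the miR-29c hairpin were nearly balanced in cells and entirely one-sided in EV. Per 100 counts of miR-29c-3p there were 88.9, 154 and 113 counts of miR-29c-5p in whole cell libraries 1, 2 and 3, so the 5p arm was the more abundant in libraries 2 and 3. In EV libraries 1, 2 and 3 the ratio was 0, and 3 counts would allow at most 0.338, 0.168 and 0.249 per 100. These limits, which cover counting error only, lie 263-fold, 530-fold and 357-fold below the lowest whole cell library. A two-sided exact permutation test of the log2 ratio, with 0.5 added to each count, gave p = 0.1, and 0.12 adjusted over 6 ratios. For 110 pairs of arms that both passed the filter, the minor arm was that with the lower mean TMM-scaled CPM over the 6 libraries. Its ratio to the major arm was lower in EV without overlap in 29 pairs and higher without overlap in 22. In 13 pairs, miR-29c among them, the minor arm was at 0 in all EV libraries. The choice of minor arm used these same counts.

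For the miR-29b hairpins the 5p names were summed, because their 3p arm is a single row. There were 23.3, 43.8 and 67.6 counts of 5p per 100 counts of miR-29b-3p in whole cells, and 3.39, 5.63 and 0 in EV. The lowest cell ratio was 4.15 times the highest EV ratio, and the exact permutation p was 0.1 (0.12 adjusted over 6 ratios). Among the 110 pairs above, which do not include miR-29b, a lower ratio in EV without overlap held for 29. miR-29a-5p was under 0.5 counts per 100 of miR-29a-3p in every library. It was counted 9, 18 and 0 times in whole cells and 0, 3 and 0 times in EV, and its groups overlapped. Over the summed counts, 27 in cells and 3 in EV, its share was 10.2 times as high in cells. The counting interval of 3.14 to 52.6 pools reads over libraries and leaves out their spread, so it is no test between the groups. By library its share was 22.7, 4.51 and 0 CPM in whole cells, and the exact permutation p of its share was 0.4.

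**Figure D4:**
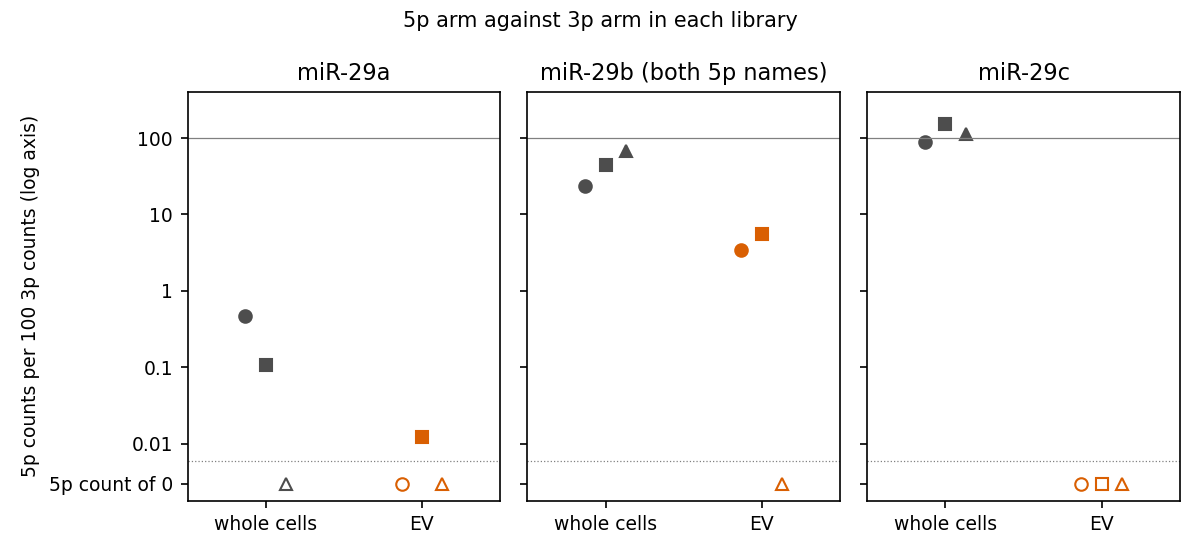
Counts of the 5p arm per 100 counts of the 3p arm (log axis) in the whole cell libraries (grey) and the EV libraries (orange); circles, squares and triangles are replicates 1, 2 and 3, open symbols are a 5p count of 0, and the line marks equal arms at 100. The miR-29c arms are near the line in whole cells (88.9 to 154) and the 5p arm is at 0 in all EV libraries.

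The 5p arms of the miR-29b hairpins were steady in cells and sporadic in EV. miR-29b-1-5p was counted 8, 28 and 14 times in whole cells, and 26, 0 and 0 times in EV. miR-29b-2-5p was counted 6, 35 and 11 times in whole cells, and 0, 86 and 0 times in EV. Each was therefore counted in exactly 1 EV library, a different one, as were 51 of the 430 miRNAs tested (11.9%). Their log2 fold changes of -0.66 and 0.17 were smaller than their SE of 2.002 and 1.98, with edgeR adjusted p of 0.852 and 0.976 in that order. Without EV replicate 1, miR-29b-1-5p was at 0 in the EV libraries that remain, and its edgeR adjusted p was 0.0130. The sign for miR-29b-2-5p rested on EV replicate 2, without which its mean share was 10.9 CPM lower in EV, and it turned to -0.049 with RLE factors.

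The 5p names split the miR-29b counts by hairpin, but only for the 5p arms. How far this split follows the use of each hairpin was not tested. The miR-29b-1-5p count was 57.1%, 44.4% and 56.0% of both 5p counts in whole cell libraries 1, 2 and 3, with exact 95% binomial intervals of 28.9 to 82.3%, 31.9 to 57.5% and 34.9 to 75.6%. Each interval includes equal counts of the 5p arms from the chromosome 7 and the chromosome 1 hairpin. In EV the percentage was 100% in library 1 (interval 86.8 to 100%) and 0% in library 2 (interval 0 to 4.20%), and library 3 had no 5p count. All 4 names of 5p arms were counted in whole cell libraries 1 and 2 and 3 of them in library 3, against 1, 2 and 0 in EV libraries 1, 2 and 3.

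Letters in the sequences were searched on the mature strand only, as a description. AGUGUU, an element of miR-29b-3p known from work on its import into the nucleus, was at bases 18 to 23 of that arm and in 12 of the 2262 sequences (0.531%). GGCU, linked to the EV factor SYNCRIP, was at bases 16 to 19 of miR-29b-2-5p and in 282 sequences (12.5%). GGAG and CCCU, linked to hnRNPA2B1, were in no member and in 357 (15.8%) and 273 (12.1%) sequences. UUU at bases 9 to 11 was shared by miR-29b-3p and miR-29c-3p, not by miR-29a-3p, and found in 35 sequences (1.55%). The other 5 miRNAs past the filter with UUU there had log2 fold changes from -1.05 to 7.44. edgeR called 0 of these 5, with 2 at an unadjusted p below 0.05, and DESeq2 called 2, where edgeR called 5.81% and DESeq2 16.7% of all miRNAs tested.

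The only other miRNAs listed within 1 Mb of a miR-29 locus were the arms of miR-335, on chromosome 7. miR-335-5p was counted 0, 2 and 0 times in whole cells and 105, 1401 and 1357 times in EV. miR-335-3p was counted 8, 13 and 3 times in whole cells and 0 times in each EV library. As with miR-29c, one arm was high and the other at 0 in EV, but miR-335-3p was also rare in whole cells.

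The miRNAs with the pattern most like each 3p arm were found by the Pearson r of TMM-scaled log2(CPM + 4) over the 6 libraries, a description that the difference between the groups largely sets. For miR-29c-3p they were miR-126-3p (r of 0.996), miR-136-3p (0.994) and miR-590-3p (0.990). For miR-29b-3p they were miR-369-3p (r of 0.989), miR-126-3p (0.988) and miR-194-5p (0.987). For miR-29a-3p they were miR-30a-3p (r of 0.959), miR-203a (0.959) and miR-629-5p (0.942). Within the family, r was 0.984 between miR-29b-3p and miR-29c-3p, 0.867 between miR-29a-3p and miR-29c-3p, and 0.808 between miR-29a-3p and miR-29b-3p.

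Other miRNAs with known links to collagen, matrix or fibrosis did not move as one. Of 26 listed, 21 passed the filter, and edgeR called 3 higher and 1 lower in EV, while DESeq2 called 8 higher and 1 lower. Over all miRNAs tested edgeR called 4.42% higher and 1.40% lower, and DESeq2 called 16.7% in either direction. With the GC trend removed edgeR called 1 higher and 2 lower, in a fit that called 19 of all 390 miRNAs. Without whole cell replicate 3 or EV replicate 2 it called 0 of all miRNAs. With each library left out in turn it called 0 to 5 of the list higher, beside 0 to 31 of all 430 in either direction. The call lower was lost in 5 of these 6 fits. The median log2 fold change of the list was 0.49, beside -0.23 for all miRNAs tested. Every EV library lay above every cell library for 8 of the 21 and below for 5. Over all miRNAs tested this held for 20.9% above and 27.4% below. The filter fixed that order for miR-19a-3p, below 5 CPM in every cell library, and for miR-145-5p and miR-200b-3p, at 0 in EV. miR-21-5p, which promotes fibrosis in several organs, rose by 3.11 ± 0.43 on the log2 scale in EV (SE, edgeR adjusted p = 0.00448). miR-101-3p, a repressor of EZH2, was higher in EV by a log2 value of 3.97 with an SE of 0.39 and an edgeR adjusted p of 0.00209. For miR-143-3p, a smooth muscle miRNA, the log2 value was 2.85 with an SE of 0.35 and an edgeR adjusted p of 0.00331, a call that was lost in 5 of the 6 fits with a library left out. In the same fits the call was lost in 4 for miR-21-5p and in 2 for miR-101-3p.

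miR-145-5p, a smooth muscle regulator from the same cluster as miR-143, was the one called lower. It was counted 67, 532 and 135 times in whole cells and 0 times in each EV library, at least 84.1-fold lower in EV (edgeR adjusted p = 0.00834). With 1 library left out its edgeR adjusted p ran from 0.00684 to 0.0380, and the call held only without EV replicate 3. The most abundant of the list without a call were miR-26a-5p, with a log2 fold change of 0.03 (edgeR adjusted p = 0.978), and miR-24-3p, at -0.66 (edgeR adjusted p = 0.268). For miR-204-5p, a miRNA of retinal pigment epithelium that is also on the Müller glial list, the log2 fold change was -1.90 (edgeR adjusted p = 0.00872), which missed only the limit on size. That of let-7d-5p, which represses HMGA2, was -1.35 (edgeR adjusted p = 0.0117).

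Markers of other sources had higher sums in EV, as the 3p arms did. The 10 blood and serum markers summed to 265 to 1204 CPM in whole cells and 2253 to 3213 CPM in EV. A large part of these sums was miR-486-5p, at 164 to 1161 CPM in whole cells and 1197 to 1711 CPM in EV. This marker was not called (log2 fold change 0.78, edgeR adjusted p = 0.487). Of these 6 passed the filter, all 6 with every EV library above every cell library, and edgeR called 3 higher. For miR-451a, miR-142-3p and miR-126-5p the filter fixed that order, as they were below 5 CPM in every cell library. Of these, miR-142-3p and miR-126-5p were among the 3 called. edgeR called 0 of the list without whole cell replicate 3, EV replicate 1 or EV replicate 2. Those fits called 0, 11 and 0 of all 430 miRNAs. Of all miRNAs tested, 20.9% had every EV library above every cell library and 4.42% were called higher. miR-451a, miR-144-3p and miR-142-5p were at 0 in all whole cell libraries, and no marker of the list was at 0 in all EV libraries. The 4 photoreceptor and neuron markers summed to 227 to 333 CPM in whole cells and 1151 to 1218 CPM in EV, and miR-124-3p was at 0 in all 6 libraries. Neither edgeR nor DESeq2 called any of the 3 past the filter, where edgeR called 5.81% and DESeq2 16.7% of all. However, 2 of them had an unadjusted p below 0.05, miR-182-5p, at a log2 fold change of 2.26 that missed only the limit on size (edgeR adjusted p = 0.00872), and miR-183-5p, at 2.07 (edgeR adjusted p = 0.0171). Of the 10 Müller glial markers given above, edgeR and DESeq2 called 0, where edgeR called 5.81% and DESeq2 16.7% of all. Their log2 fold changes ran from -1.90 for miR-204-5p (edgeR adjusted p = 0.00872) to 1.70 for miR-16-5p (edgeR adjusted p = 0.0109). Of the 10, 3 had an unadjusted edgeR p below 0.05. The part of the blood, serum, photoreceptor and neuron sources in the miR-29 values was not tested.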

How the data were processed

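The deposited tables hold, for each library, raw counts per mature miRNA, which the authors obtained from trimmed and aligned reads with featureCounts 1.5.0-p1 (strand setting 1). The file headers name miRBase 20 and Bowtie 1, where the methods name Bowtie2 and another release. How reads that fit several loci were counted is not given in the sources used here. Samples were grouped by the fraction in their labels. Counts of all library pairs differed beyond sampling noise (chi-square of 21.5 or more for each degree of freedom).

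miRNAs that reached 5 CPM in 3 or more of the 6 libraries were compared by edgeR 4.0.16 with TMM factors in R 4.3.3, with Benjamini-Hochberg adjustment over all 430. The limits were an adjusted p of 0.01 and a log2 fold change of 2.5. DESeq2 1.42.0, the tool of the study, was an alternative, beside RLE and upper-quartile factors, library totals, no filter, thinning to the smallest library, a GC offset, looser limits and each library left out. For shares and ratios the test was an exact two-sided permutation of libraries. The edgeR fit was checked on simulated counts, with a pass limit set only at a dispersion below that of these data (common dispersion 0.918). How well calls hold at the dispersion of these data is not given here. Python 3.11.15 with matplotlib 3.10.9 drew the figures.

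The named miRNAs were the 7 members, others with the 3p seed, those listed within 1 Mb of a member, the 3 most correlated with each 3p arm, and of the matrix list those called and the 4 most abundant others. Members and lists were chosen with earlier results of these data known.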

Additional observations from a re-analysis of the deposited data

How the results depend on the processing

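The number of members called was 1 with edgeR and TMM factors. It was 3 with DESeq2 (72, or 16.7%, of all miRNAs called against 25), 2 without the filter on low counts (45, or 3.79%, of 1188 miRNAs), 3 at an adjusted p below 0.05 (93, or 21.6%, of all) and 4 at that limit without a fold limit (123, or 28.6%, of all). It was 1 with RLE factors (24 of all 430 miRNAs called), upper-quartile factors (38), library totals (37), thinned counts (27) and the GC trend removed (19 of 390). With each library left out in turn it ranged from 0 to 2, while 0 to 31 of all miRNAs were called, 0 of them without whole cell replicate 3 or EV replicate 2. The added calls with DESeq2 were miR-29b-3p (log2 fold change 2.85) and miR-29c-5p, and without the filter miR-29c-5p. The cause of these differences was not tested.

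With each library left out, the log2 fold change ranged from 3.88 to 4.47 for miR-29c-3p (edgeR adjusted p 0.00684 to 0.0288), from 2.75 to 3.90 for miR-29b-3p (edgeR adjusted p 0.00961 to 0.0504) and from 0.86 to 1.62 for miR-29a-3p (edgeR adjusted p 0.0190 to 0.127). Over the other 7 settings the ranges were 2.97 to 4.11, 1.87 to 3.05 and 0.80 to 1.43. All of these values were above 0.

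For miR-29b-2-5p the log2 fold change of 0.17 turned to -0.063 with DESeq2, -0.049 with RLE factors and -0.048 with upper-quartile factors, and ranged from -7.38 to 0.75 with each library left out. The difference in its share ranged from -10.9 to 10.2 CPM. For miR-29b-1-5p the log2 fold change of -0.66 ranged from -7.74, without EV replicate 1, to -0.21. For miR-29b-2-5p both low ends left out EV replicate 2, and in each case the remaining EV libraries are at 0, so that the fitted value depends on the prior count. No paired analysis was possible because the labels give only passages, which no sample shares. With 3 libraries in each group, groups were too small for a test of single outlying samples, and counts of 27 to 144 in whole cells limit the precision of miR-29b-3p and miR-29c-3p.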
